A study of Homo sapiens with 6 samples.

Results

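The genes described here encode the nuclear subunits of respiratory complexes II to V and cytochrome c, measured in the established human cell line OCI-AML2, from an acute myeloid leukaemia, after knockdown of TAZ. TAZ encodes tafazzin, the transacylase that remodels cardiolipin, the signature phospholipid of the mitochondrial inner membrane. Members were taken by name from the deposited tables: SDHA, SDHB, SDHC and SDHD, CYC1, CYCS, and every gene whose symbol starts with UQCR, with COX4 to COX8 or with ATP5, leaving out antisense genes and pseudogenes. Of 13002 genes listed, 42 were members: 4 of complex II, 9 of complex III, cytochrome c (1), 11 under the complex IV names and 17 under the complex V names. Among them, 3 are not subunits of the complex whose name they carry: COX7A2L is a supercomplex assembly factor, and ATP5S and ATP5SL (newer symbols DMAC2L and DMAC2) are related to each other and carry an ATP5 name only by history.

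Bulk RNA sequencing gave 6 libraries, with an A and a B library in each of 3 groups. Control cells carried a lentiviral hairpin that the labels call scramble, while the table columns carry a GFP name; the other groups carried 1 of 2 independent hairpins against TAZ, shRNA1 or shRNA2. Cells of all groups had been infected with lentivirus, selected in 2.0 µg/mL puromycin for 3 days and grown in IMDM with fetal calf serum. All came from 1 cell line, and the labels do not say whether A and B were separate cultures, so the p-values rest on a spread between libraries that may be technical only.

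Complex II (succinate dehydrogenase) passes electrons from succinate to ubiquinone, complex III passes them on to cytochrome c, and complex IV (cytochrome c oxidase) passes them to oxygen. Complexes III and IV pump protons out of the matrix, and complex V (ATP synthase) lets them flow back through a rotating ring of c subunits to make ATP. Cardiolipin binds complexes III, IV and V and the supercomplexes that they form, and all but complex II combine nuclear subunits with subunits encoded by mitochondrial DNA. The mitochondrially encoded subunits were not analysed here.

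Levels are given in RPKM, reads scaled to gene length and library depth. TAZ, the targeted gene, had 11.3 RPKM in control A and 11.9 in control B. Under shRNA1 it had 4.02 and 4.10 RPKM, and under shRNA2 1.47 and 2.13 RPKM, so all 4 knockdown libraries were below both controls. Its log2 fold change was -1.41 with shRNA1 (SE 0.13, limma adjusted p = 0.00205) and -2.41 with shRNA2 (SE 0.18, limma adjusted p = 0.00245). The reads assigned to listed genes ranged from 18820566 to 20980920 per library. Of 11 myeloid markers 9 were listed, 8 of them at 1 RPKM or more in all 6 libraries. Their summed level was 1038 to 1186 RPKM in control libraries, 5193 to 5724 with shRNA1 and 3923 to 4675 with shRNA2. The most abundant markers weigh most in such a sum, and single markers were not compared. No erythroid, epithelial or fibroblast marker was listed, and the summed B cell markers reached at most 1.21 RPKM and the T cell marker 0.981 RPKM, both in a control library. The part of these marker levels in the members' values was not tested. In bulk RNA, more cells of a type and more RNA per cell cannot be told apart.

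The ETS factor GABP and NRF1 are known regulators of nuclear genes for mitochondrial proteins. RefSeq promoters of 300 bases (250 before to 50 after the gene start, GRCh38.p14) were matched for 33 of the 42 members. On either strand, CCGGAAG, an ETS core, was present in 14 of these 33 (42.4%) against 19.8% of the 10257 listed genes with a promoter in the table. GCGC followed after any 2 bases by GCGC, an NRF1-like pattern, was present in 9 of 33 (27.3%) against 16.2% of listed genes. Of 2 general promoter patterns searched in the same way, TATAAA was present in 9.09% of the members against 5.86%, and GGGCGG in 54.5% against 68.7%. The last 120 bases before the gene start are shown for 6 members, each written from the gene's own strand, with either pattern in capitals. SDHC and ATP5B were not among the 33 matched members and are not shown. SDHA (plus strand, chr5:218200-218319) and SDHD (plus, chr11:112086753-112086872) are from complex II, and UQCRC2 (plus, chr16:21953241-21953360) from complex III. ATP5G1 (plus, chr17:48892667-48892786) and ATP5G2 (minus, chr12:53676084-53676203) encode the c ring. ATP5J (minus, chr21:25735055-25735174) encodes a stalk subunit whose promoter faces that of GABPA.
SDHA: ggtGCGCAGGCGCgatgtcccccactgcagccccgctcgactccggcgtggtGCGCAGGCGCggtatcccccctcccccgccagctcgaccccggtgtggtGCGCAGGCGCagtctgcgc
SDHD: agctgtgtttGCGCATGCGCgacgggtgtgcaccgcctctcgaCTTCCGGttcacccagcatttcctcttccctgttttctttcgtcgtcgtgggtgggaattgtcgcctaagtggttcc
UQCRC2: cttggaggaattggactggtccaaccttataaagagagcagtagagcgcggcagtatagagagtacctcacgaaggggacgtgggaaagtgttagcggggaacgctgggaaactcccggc
ATP5G1: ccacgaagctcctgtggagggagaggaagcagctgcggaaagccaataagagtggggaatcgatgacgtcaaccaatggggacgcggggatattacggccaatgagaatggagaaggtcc
ATP5G2: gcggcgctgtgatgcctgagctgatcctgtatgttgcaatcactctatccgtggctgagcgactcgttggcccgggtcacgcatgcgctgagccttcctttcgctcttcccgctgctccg
ATP5J: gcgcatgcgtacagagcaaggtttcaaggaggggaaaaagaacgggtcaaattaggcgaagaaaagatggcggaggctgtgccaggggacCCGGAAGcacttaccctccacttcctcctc

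Within the bases shown, the NRF1-like pattern is present 3 times at SDHA and 1 time at SDHD, and the ETS core 1 time at SDHD and 1 time at ATP5J. Neither pattern is in these letters at UQCRC2, ATP5G1 or ATP5G2. A match describes the letters of this window and is not evidence of a bound site. With shRNA1 the median log2 fold change as deposited was -0.22 for the 14 members with the ETS core and -0.10 for the 19 without it, and with shRNA2 0.01 and 0.14. After removal of each library's trend over gene length, the medians were 0.05 and 0.14 with shRNA1 and 0.21 and 0.26 with shRNA2. For the NRF1-like pattern the order was the other way: as deposited, the 9 members with it were at -0.10 and the 24 without it at -0.18 with shRNA1, and at 0.08 and 0.06 with shRNA2. Both comparisons share their control libraries, and the differences between members with and without a pattern were not tested.

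Transcripts of these complexes were abundant. The mean over both control libraries ranged from 8.36 RPKM (ATP5S) to 965.5 RPKM (COX7C), with a median of 241 RPKM over the 42 members against 10.4 RPKM over all genes tested. COX7C, a small membrane subunit of cytochrome c oxidase, was at 965.5 ± 184 RPKM (SD, n = 2 control libraries). UQCRH, the hinge protein of complex III, was next at 831 ± 139 RPKM, followed by COX4I1, the largest nuclear subunit of complex IV, at 636 ± 116 RPKM. Neighbours in this order overlapped within their spread: the control libraries of UQCRH spanned 733 to 929 RPKM and those of COX7C 835 to 1096 RPKM. Complex II genes were lower, from 57.5 ± 4.42 RPKM for SDHC to 171 ± 7.63 RPKM for SDHB. RPKM divides by the length of the gene model that the authors used, so genes with a long model, such as CYCS at 5538 bases, are lower than the same reads would give over a shorter one. For 31 of the 42 members the RefSeq gene table names at least 1 pseudogene (45 for CYCS and 18 for COX6C), and reads shared with such copies could be counted to either.

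**Figure D1:**
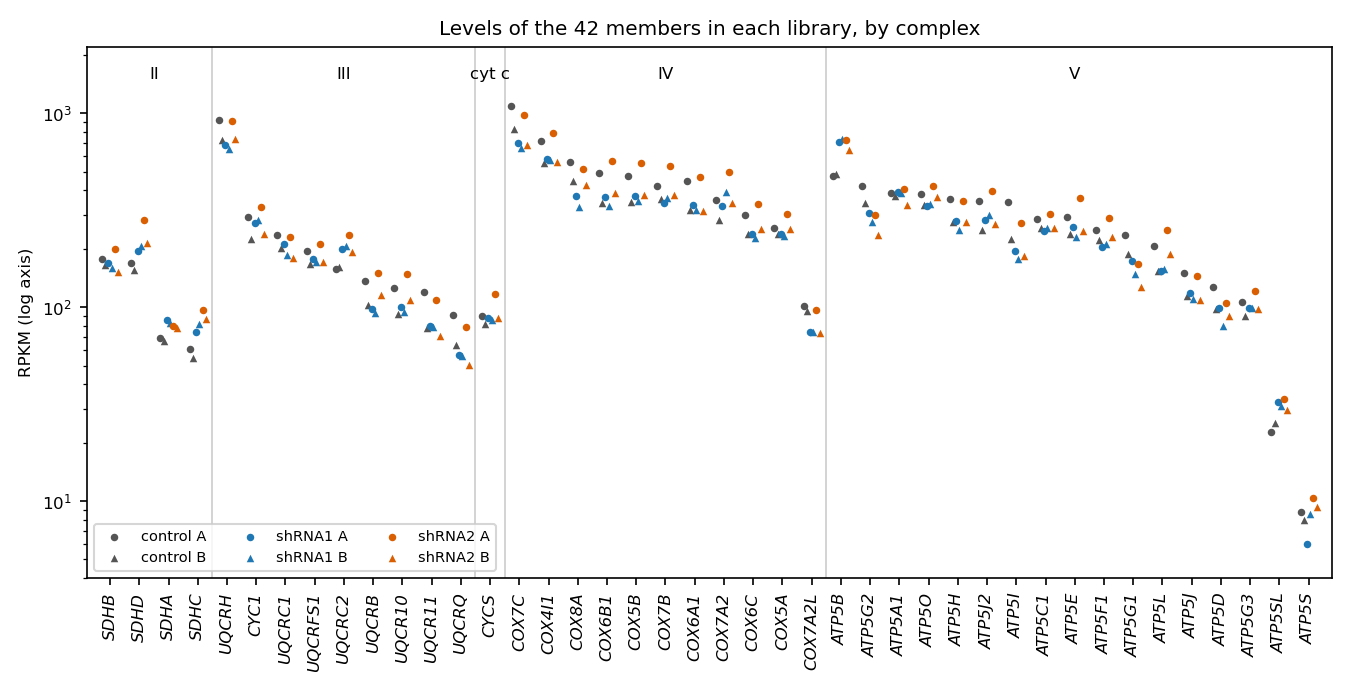
RPKM (log axis) of each of the 42 members in each of the 6 libraries, grouped by complex and ordered by control mean; circles are A libraries and triangles B libraries. ATP5S at 8.36 RPKM and ATP5SL at 24.0 RPKM in control lie well below the subunits, and library A of shRNA2 is above library B for all 42 members.

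The members' genes are short, and the libraries differed by gene length. The length implied by the deposited RPKM had a median of 1146 bases over the members (365 to 5538) against 2933 bases over all genes tested, and 22 members were in the shortest decile of genes tested. In control A the genes of the shortest decile were at a median log2 deviation of 0.33 from their 6-library mean and those of the longest decile at -0.23. In shRNA2 B these deciles were at -0.19 and 0.15, and in shRNA1 B at -0.16 and 0.13. Control B was nearly flat, at 0.02 and -0.02.

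Members followed this in part. As deposited, their median deviation was 0.18 in control A and -0.14 in control B. It was -0.10 (A) and -0.14 (B) under shRNA1, and 0.27 (A) and -0.07 (B) under shRNA2. With each library's trend over gene length removed (a lowess curve), the control libraries were at -0.11 and -0.14, shRNA1 at -0.01 and -0.03, and shRNA2 at 0.20 and 0.08. In these values both control libraries were lowest, shRNA2 was highest, and the groups did not overlap. Library A was above library B for 39 of 42 members in the control and for 42 of 42 with shRNA2, but for 28 of 42 with shRNA1. Because the length trend differed between the control libraries themselves, each comparison below is given as deposited and with the trend removed. The cause of the trend was not tested.

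**Figure D2:**
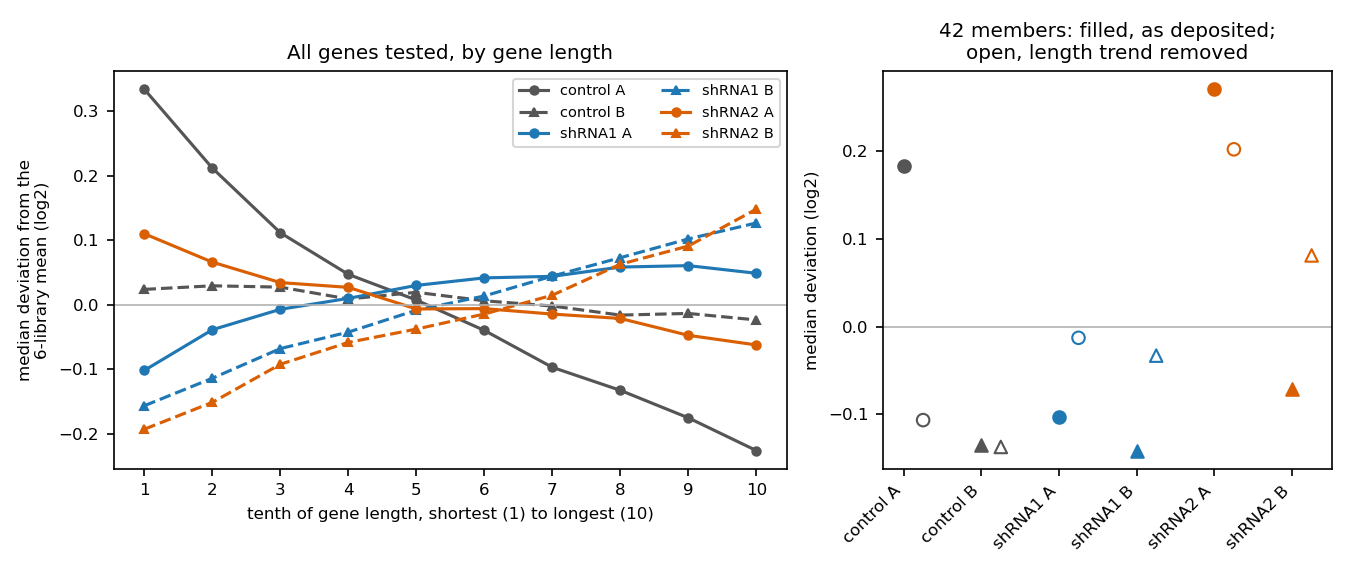
Left, median log2 deviation from the 6-library mean of all genes tested in each decile of gene length, 1 line per library; right, the median over the 42 members in each library as deposited (filled) and with the trend removed (open). Control A falls from 0.33 in the shortest decile to -0.23 in the longest, and its members move from 0.18 to -0.11 when the trend is removed.

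Against the control, shRNA1 left most members within the spread of the libraries. Of 42 members, all of which passed the filter of a mean of at least 1 RPKM, 2 rose, ATP5B and SDHC, against 9.99% of all genes tested (10613). COX7A2L fell (1 member), against 8.58% of all genes tested. These counts use limma on log2(RPKM + 0.5), two-sided, with Benjamini-Hochberg adjusted p under 0.05 over all genes tested. The median log2 fold change of the members was -0.14, beside 0.00 over all genes tested and -0.32 over genes of the shortest decile. This depended on single libraries. Without control B 24 members passed (41.9% of all genes tested did in that fit), 20 of them lower (21%), and the median was -0.27. Without control A 10 passed (31%), 7 of them higher (16%), and the median was 0.01. Without shRNA1 A or shRNA1 B 0 members passed, where 7.64% and 4.71% of all genes tested did.

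With the length trend removed, 7 members rose with shRNA1, against 10.6% of all genes tested, and 0 fell, against 9.01%. They were SDHA, SDHC and SDHD of complex II, UQCRC2, COX7A2, ATP5B and ATP5SL. The median was then 0.09, and 28 of 42 members had a positive fold change, as had 5293 of the 10613 genes tested. Without shRNA1 A or shRNA1 B 0 members passed in this fit, where 1.91% and 0.17% of all genes tested did. COX7A2L did not pass in that fit (log2 fold change -0.15, limma adjusted p = 0.312).

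With shRNA2, SDHC alone rose (1 of 42), against 8.12% of all genes tested (10659), and 0 members fell, against 7.61%. At an unadjusted p under 0.05, 5 members were higher and 2 lower, where 16.7% and 16.1% of all genes tested were. The members' median log2 fold change was 0.13, beside 0.00 over all genes tested and -0.23 over the shortest decile. Without control B the median was -0.05 and without shRNA2 A -0.09. In both fits SDHC did not pass and 0 members were called, where 18.1% and 11.4% of all genes tested were.

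Removing the length trend moved more members past the threshold with shRNA2 than with shRNA1. In that fit 15 rose, against 12.5% of all genes tested, and ATP5G2 fell (1 member), against 11.3%. Of complex IV, COX5A, COX5B, COX6B1, COX6C, COX7A2 and COX7B passed; of complex V, ATP5B, ATP5E, ATP5J2, ATP5L and ATP5SL; of complexes II and III, SDHC, SDHD, UQCR10 and UQCRC2. The median was 0.26, and 36 of 42 members had a positive fold change, as had 5284 of the 10659 genes tested. The 16 calls became 9 without control A (22.6% of all genes tested) and 9 without control B (20.7%), 2 without shRNA2 B (4.34%) and 0 without shRNA2 A (4.47%). As deposited, leaving out shRNA2 A put 6 of these 16 members on the other side of 0 (COX5B, COX6B1, COX6C, COX7B, ATP5E and ATP5J2), and leaving out control B put 4 there (COX5B, COX6B1, COX6C and ATP5J2).

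**Figure D3:**
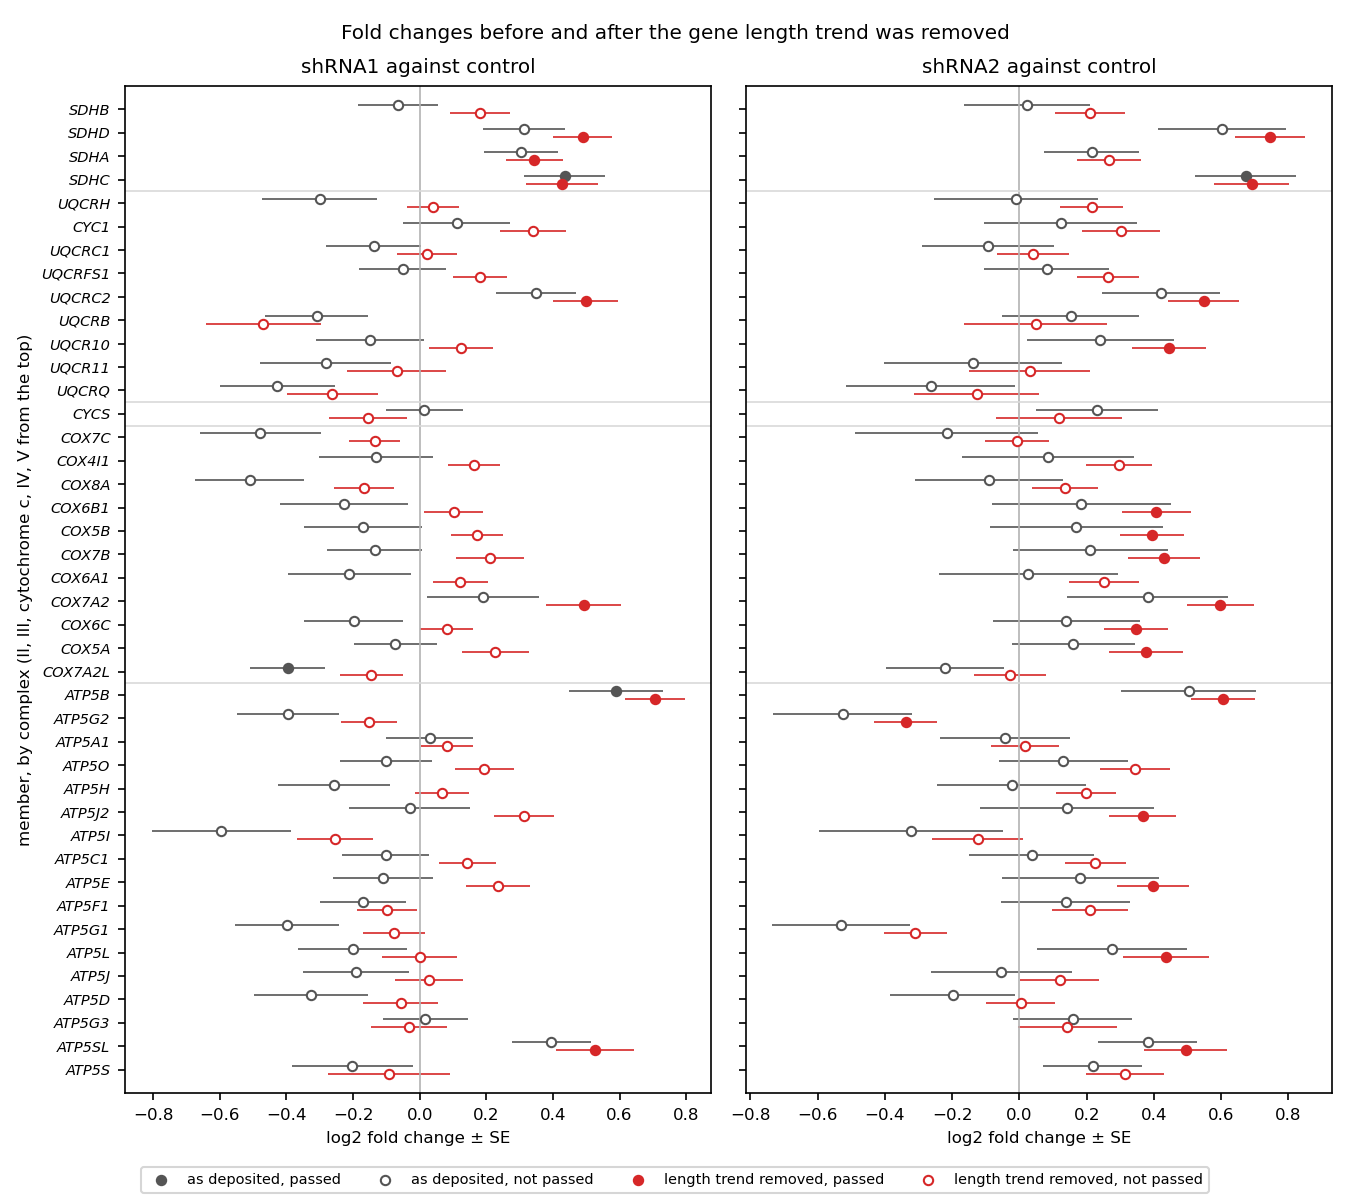
Log2 fold change ± SE of each member against control with shRNA1 (left) and shRNA2 (right), as deposited (grey) and with the gene length trend removed (red); filled points passed the limma test at an adjusted p of 0.05. Filled red points number 7 on the left and 16 on the right, against 3 and 1 filled grey points.

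In complex II, 3 of the 4 genes were above both control libraries with each hairpin. Of all genes tested, 33.5% were with shRNA1 and 31% with shRNA2, and both comparisons share the controls. SDHC encodes a membrane anchor that, with SDHD, holds a haem and a ubiquinone site. It was at 60.6 and 54.4 RPKM in the control libraries, 74.2 and 81.7 under shRNA1, and 96.4 and 87.4 under shRNA2. No knockdown library overlapped the controls, and shRNA2 was above shRNA1 in both libraries. Its log2 fold change was 0.44 with shRNA1 (SE 0.12, limma adjusted p = 0.0477; 0.43 with the trend removed) and 0.67 with shRNA2 (SE 0.15, adjusted p = 0.027; 0.69 with the trend removed). The difference between the hairpins, 0.24 (SE 0.13), did not pass (limma adjusted p = 0.286).

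SDHD encodes the partner anchor. It was at 169 and 155 RPKM in control, 196 and 206 under shRNA1, and 280 and 215 under shRNA2, with shRNA2 A the highest library. The fold changes of 0.31 (SE 0.12, limma adjusted p = 0.114) and 0.60 (SE 0.19, adjusted p = 0.0707) missed the threshold as deposited and passed it with the trend removed, at 0.49 (adjusted p = 0.016) and 0.75 (adjusted p = 0.00516). SDHA, the flavoprotein that oxidises succinate, was at 69.2 and 67.1 RPKM in control, 86.0 and 82.6 under shRNA1, and 80.3 and 77.9 under shRNA2. All 4 knockdown libraries were above both controls. Its fold changes were 0.30 (SE 0.11, limma adjusted p = 0.0959) and 0.21 (SE 0.14, adjusted p = 0.329). With the trend removed the value for shRNA1 passed (0.34, adjusted p = 0.0373) and that for shRNA2 did not (0.27, adjusted p = 0.0864).

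Unlike the other complex II genes, SDHB, the iron-sulphur subunit, overlapped the control with each hairpin, a contrast that was not tested. It was at 177 and 166 RPKM in control, 169 and 159 under shRNA1, and 199 and 152 under shRNA2, so all groups overlapped. Its fold changes were -0.06 (SE 0.12, limma adjusted p = 0.726) and 0.02 (SE 0.19, adjusted p = 0.949). SDHB has a gene model of 1145 bases, against 2879 for SDHC and 2389 for SDHA, and with the trend removed it was at 0.18 and 0.21 without passing.

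In complex III, the values of the pair of core proteins differed, though the difference between them was not tested. UQCRC2 was at 157 and 162 RPKM in control, 199 and 208 under shRNA1, and 236 and 193 under shRNA2, above both controls in every knockdown library. Its log2 fold changes of 0.35 (SE 0.12, limma adjusted p = 0.0807) and 0.42 (SE 0.18, adjusted p = 0.141) passed with the trend removed, at 0.50 (adjusted p = 0.0197) and 0.55 (adjusted p = 0.0133). UQCRC1 was at 236 and 201 RPKM in control, 211 and 186 under shRNA1, and 231 and 180 under shRNA2. These groups overlapped, and its fold changes were -0.14 (SE 0.14) and -0.09 (SE 0.20).

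Neither redox subunit of complex III passed as deposited or with the trend removed, but other fits called them. CYC1 passed with shRNA1 when control A was left out, as deposited and with the trend removed. With shRNA2 both passed when the trend was removed and the letters A and B were added as a block. CYC1, cytochrome c1, was at 293 and 225 RPKM in control, 272 and 283 under shRNA1, and 327 and 239 under shRNA2. UQCRFS1, the Rieske iron-sulphur protein, was at 195 and 168 RPKM in control, 177 and 172 under shRNA1, and 213 and 172 under shRNA2. Libraries of the 3 groups overlapped for both genes. The supernumerary subunit UQCRQ had the lowest fold change of the complex with each hairpin as deposited, -0.43 (SE 0.17, limma adjusted p = 0.122) and -0.26 (SE 0.25, adjusted p = 0.497). It was at 91.0 and 63.6 RPKM in control, 56.7 and 56.2 under shRNA1, and 79.1 and 50.6 under shRNA2, and only the shRNA1 libraries were both below the controls. CYCS, cytochrome c itself, was at 90.1 and 82.0 RPKM in control, 87.7 and 85.9 under shRNA1, and 116 and 87.4 under shRNA2, without passing.

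UQCRB, named for ubiquinone binding, separated the hairpins most within complex III. It was at 136 and 103 RPKM in control, 98.0 and 93.1 under shRNA1, and 149 and 116 under shRNA2. Both shRNA1 libraries were below both controls and both shRNA2 libraries, whereas shRNA2 overlapped the control. The difference of 0.46 between the hairpins (SE 0.18) had a limma adjusted p of 0.138. UQCRB has a long gene model, 5109 bases, and with the trend removed its fold change with shRNA1 went from -0.31 to -0.47, the lowest of the complex, without passing (adjusted p = 0.102). UQCR10, a small supernumerary subunit, was at 125 and 92.1 RPKM in control, 99.6 and 94.0 under shRNA1, and 148 and 109 under shRNA2. Its groups overlapped, and with shRNA2 it passed only with the trend removed (0.44, limma adjusted p = 0.0301; 0.24 as deposited).

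Among the 11 genes under complex IV names, COX7A2L alone passed as deposited. With shRNA1, 10 of the 11 had a negative fold change as deposited (median -0.20), as had 5309 of the 10613 genes tested. With the trend removed 8 had a positive one (median 0.12). With shRNA2, 8 had a positive fold change as deposited (median 0.14), as had 5279 of the 10659 genes tested. With the trend removed 9 had one (median 0.35). COX4I1 was at 718 and 554 RPKM in control, 580 and 572 under shRNA1, and 793 and 564 under shRNA2, and within the control and shRNA2 its A and B libraries differed more than the group means did. COX5A, a matrix-side subunit, was at 256 and 238 RPKM in control, 238 and 232 under shRNA1, and 303 and 252 under shRNA2. Its value with shRNA2 passed with the trend removed (0.38, limma adjusted p = 0.0485), and as deposited it did not (0.16, adjusted p = 0.575).

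COX8A, a single-pass membrane subunit, was at 559 and 446 RPKM in control, 373 and 329 under shRNA1, and 518 and 425 under shRNA2. Both shRNA1 libraries were below the other 4, while shRNA2 overlapped the control. Its fold change with shRNA1 was -0.51 (SE 0.16, limma adjusted p = 0.0695) as deposited and -0.17 (adjusted p = 0.225) with the trend removed. COX7A2, another single-pass subunit, was at 357 and 281 RPKM in control, 333 and 393 under shRNA1, and 495 and 345 under shRNA2. Groups overlapped, and the fold changes of 0.19 (adjusted p = 0.447) and 0.38 (adjusted p = 0.306) passed with the trend removed, at 0.49 (adjusted p = 0.0308) and 0.60 (adjusted p = 0.0085).

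The other 4 complex IV genes that passed with shRNA2 only when the trend was removed are small supernumerary subunits, and in each shRNA2 A was the highest library. COX5B was at 476 and 349 RPKM in control, 373 and 351 under shRNA1, and 553 and 380 under shRNA2 (0.17 as deposited, 0.39 with the trend removed). COX6B1 was at 491 and 344 RPKM in control, 371 and 332 under shRNA1, and 565 and 387 under shRNA2 (0.18 and 0.41). In both genes shRNA2 B lay between the control libraries. COX6C was at 298 and 239 RPKM in control, 237 and 228 under shRNA1, and 340.4 and 254 under shRNA2 (0.14 and 0.35). COX7B was at 420 and 361 RPKM in control, 345 and 364 under shRNA1, and 536 and 379 under shRNA2 (0.21 and 0.43). There too, shRNA2 B lay between the controls.

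COX7A2L, which joins complexes III and IV into supercomplexes, was at 101 and 95.1 RPKM in control, 74.6 and 74.3 under shRNA1, and 96.3 and 73.4 under shRNA2. Both shRNA1 libraries were below both controls, while shRNA2 A lay between the controls and shRNA2 B below them. The fall with shRNA1, -0.40 (SE 0.11, limma adjusted p = 0.0498), lay at the threshold. The shRNA2 value was -0.22 (SE 0.18, adjusted p = 0.415).

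In complex V the F1 head held the largest rise of the members with shRNA1. ATP5B (newer symbol ATP5F1B), the catalytic beta subunit, was at 476 and 489 RPKM in control, 712 and 740.0 under shRNA1, and 726 and 644 under shRNA2. All 4 knockdown libraries were above both controls. The log2 fold change was 0.59 with shRNA1 (SE 0.14, limma adjusted p = 0.0303) and 0.50 with shRNA2 (SE 0.20, adjusted p = 0.13), and with the trend removed 0.71 (adjusted p = 0.00557) and 0.61 (adjusted p = 0.00721). ATP5A1 (ATP5F1A), the alpha subunit with which ATP5B alternates in the head, was at 390 and 376 RPKM in control, 392 and 390 under shRNA1, and 409 and 338 under shRNA2. Its groups overlapped, with fold changes of 0.03 (SE 0.13) and -0.04 (SE 0.19).

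The c ring is built from 1 mature protein encoded by 3 genes, ATP5G1, ATP5G2 and ATP5G3 (newer symbols ATP5MC1, ATP5MC2 and ATP5MC3). ATP5G1 was at 236 and 189 RPKM in control, 173 and 148 under shRNA1, and 167 and 127 under shRNA2. ATP5G2 was at 420.1 and 346 RPKM in control, 306 and 274 under shRNA1, and 298 and 235 under shRNA2. For both genes every knockdown library was below both controls. ATP5G3 was at 106 and 90.1 RPKM in control, 98.6 and 99.0 under shRNA1, and 121 and 97.9 under shRNA2, and its groups overlapped.

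As deposited, ATP5G1 was at -0.40 (SE 0.16, limma adjusted p = 0.114) with shRNA1 and -0.53 (SE 0.20, adjusted p = 0.119) with shRNA2, and ATP5G2 at -0.40 (SE 0.15, adjusted p = 0.108) and -0.53 (SE 0.21, adjusted p = 0.125). Neither passed. With the trend removed, ATP5G1 was at -0.08 and -0.31 (adjusted p = 0.588 and 0.0517) and ATP5G2 at -0.15 and -0.34 (adjusted p = 0.234 and 0.0405). In the authors' deposited table, both genes had an adjusted p under 0.05 with each hairpin, at log2 fold changes of -0.40 and -0.52 for ATP5G1 and -0.40 and -0.52 for ATP5G2. Of listed genes, 17.1% were lower in this way with shRNA1 and 18.9% with shRNA2. UQCRQ, COX7C, COX8A, COX7A2L, ATP5D and ATP5I were also lower there, with shRNA1 alone. SDHC, UQCRC2, ATP5B and ATP5SL were higher there with each hairpin.

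Among the small membrane subunits that hold ATP synthase dimers, ATP5I (ATP5ME) had the lowest fold change of complex V with shRNA1, -0.60 (SE 0.21, limma adjusted p = 0.0864). It was at 349.8 and 225 RPKM in control, 195 and 177 under shRNA1, and 272 and 184 under shRNA2, and the control libraries differed from each other more than shRNA2 B did from control B. ATP5I has the shortest gene model of the members, 365 bases, and was at -0.25 with the trend removed. ATP5L (ATP5MG), the g subunit of the same group, was at 208 and 154 RPKM in control, 153 and 158 under shRNA1, and 251 and 187 under shRNA2. Both shRNA2 libraries were above both shRNA1 libraries. ATP5J2, the f subunit, was at 353 and 250.3 RPKM in control, 283 and 300 under shRNA1, and 399 and 269 under shRNA2, and ATP5E, the epsilon subunit of the F1 head, at 291 and 240 RPKM in control, 260 and 230 under shRNA1, and 364 and 246 under shRNA2. Both overlapped the control and passed with shRNA2 only with the trend removed (0.37 and 0.40). ATP5SL, which is not a subunit, was at 22.7 and 25.3 RPKM in control, 32.3 and 31.0 under shRNA1, and 33.5 and 29.4 under shRNA2. Its 4 knockdown libraries were above both controls, at 0.40 and 0.38 as deposited (limma adjusted p = 0.0567 and 0.117) and 0.53 and 0.49 with the trend removed (adjusted p = 0.0268 and 0.0301). The peripheral stalk genes ATP5F1, ATP5H, ATP5J and ATP5O all missed the threshold in these comparisons, with medians of -0.18 and 0.05 with shRNA1 and shRNA2. The remaining subunits UQCR11, UQCRH, COX6A1, COX7C, ATP5C1 and ATP5D passed in none of the 3 comparisons, as deposited or with the trend removed. As deposited, UQCR11, COX6A1, ATP5C1 and ATP5D were at -0.33 to -0.10 under shRNA1 and -0.20 to 0.04 under shRNA2. COX7C was at -0.48 and -0.22, and UQCRH at -0.30 and -0.01. Both shRNA1 libraries of COX7C and of UQCRH were below both controls, as for 32.5% of all genes tested.

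**Figure D4:**
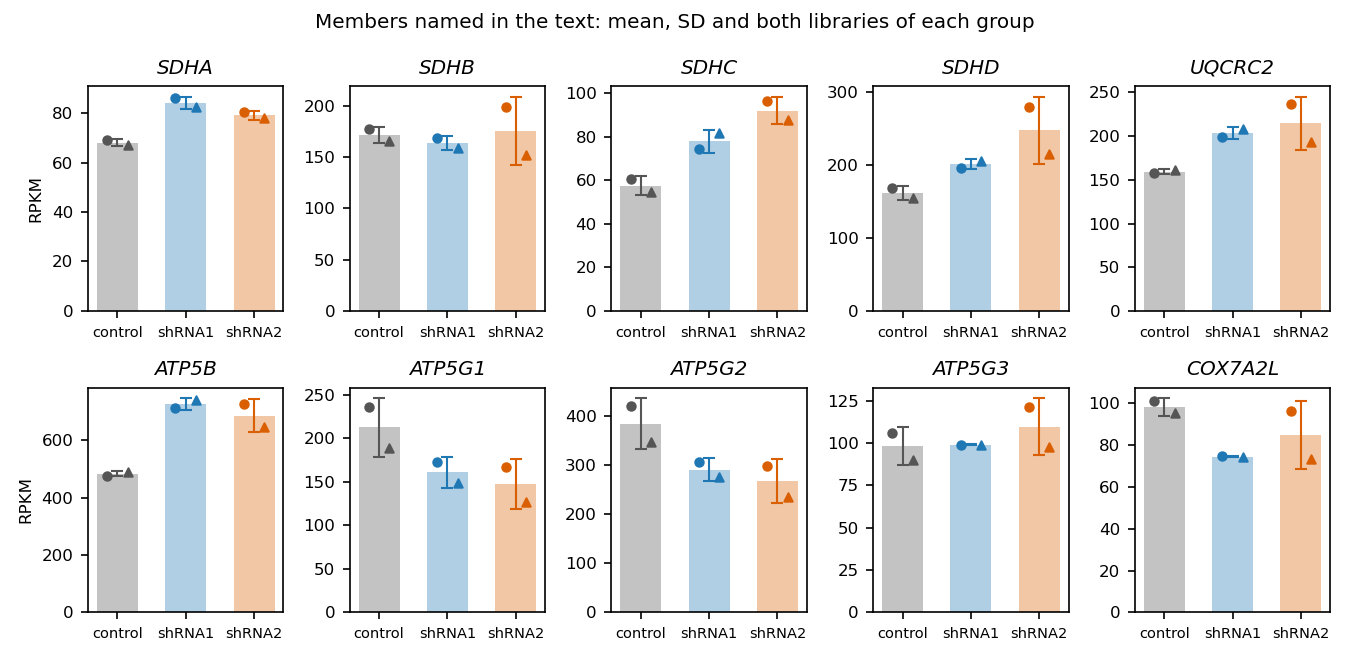
RPKM of 10 members in each group: bars are the mean of 2 libraries, error bars the SD, and points library A (circle) and B (triangle). SDHC, SDHA, SDHD, UQCRC2 and ATP5B lie above control in all 4 knockdown libraries, ATP5G1 and ATP5G2 below, and SDHB and ATP5G3 overlap the control.

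Set by non-overlap of libraries, 6 members were higher with shRNA1 than both controls (33.5% of all genes tested) and 12 were lower (32.5%). With shRNA2, 7 were higher (31%) and 2 lower (31.1%), the 2 being ATP5G1 and ATP5G2. In the authors' deposited table, 5 members had a higher value at an adjusted p under 0.05 with shRNA1 (18.8% of listed genes) and 8 a lower one (17.1%); with shRNA2 these were 5 (19.9%) and 2 (18.9%). These shares of members lie below the background except for 12 of 42 and 8 of 42, which lie near it.

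The hairpins were also set against each other. No member passed between shRNA2 and shRNA1 in limma over all 6 libraries (0 of 42, against 10.9% of all genes tested in either direction). At an unadjusted p under 0.05, 4 members were higher with shRNA2 (11.9% of all genes tested) and 0 lower (14.3%), and limma-voom on the recovered reads also called 0 (against 9.97% of all genes tested). All 11 genes under complex IV names and all 9 of complex III had a positive difference (11 and 8 with the trend removed). So did 5204 of the 10660 genes tested (5402 with the trend removed). The median over the 42 members was 0.22, beside -0.01 over all genes tested and 0.10 over the shortest decile. The members' median was 0.43 without shRNA2 B and -0.00193 without shRNA2 A. With the trend removed it was 0.13, and ATP5L, at 0.44 (SE 0.12, limma adjusted p = 0.0409), was the 1 member that passed, against 7.92% of all genes tested; it did not pass as deposited (0.48, adjusted p = 0.157).

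**Figure D5:**
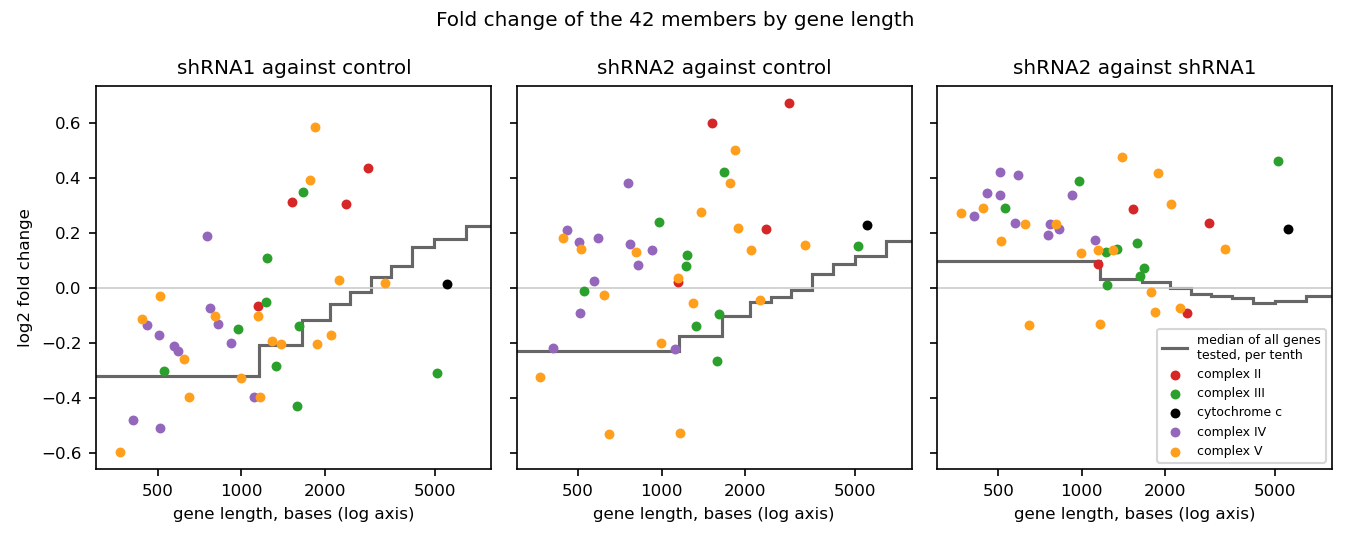
Log2 fold change of each member against its gene length in bases (log axis), coloured by complex, with the median of all genes tested in each decile of length as a stepped line, for the 3 comparisons. With shRNA1 the line climbs from -0.32 in the shortest decile to 0.23 in the longest. Of the members, 28 lie above the line with shRNA1 and 38 with shRNA2. The line is a median, so as many genes of each decile lie above it as below.

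The 38 listed complex I subunits, which are short as well (median 854 bases), had a median of -0.22 with shRNA1 and -0.08 with shRNA2. With the trend removed these were 0.03 and 0.10, and 4 and 5 of the 38 rose, near the 10.6% and 12.5% of all genes tested. Genes of 84 cytosolic ribosomal proteins, at a median of 813 bases, were at -0.35 and -0.37, and at -0.07 and -0.16 with the trend removed. Over the 42 members the corresponding medians were -0.14 and 0.13, and 0.09 and 0.26. These differences between lists were not tested.

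Proteins that assemble the complexes were read from a list of assembly factors, small ATP synthase proteins and regulators, 51 of which were tested. With shRNA1 3 of 51 fell, against 8.58% of all genes tested, and 0 rose, against 9.99%. With the trend removed SDHAF1 and ACN9 fell and COA7, a complex IV assembly factor, rose (0.45, limma adjusted p = 0.046), against 9.01% and 10.6%. SDHAF1, which helps insert iron-sulphur clusters into SDHB, was at 18.4 and 14.1 RPKM in control, 9.43 and 7.33 under shRNA1, and 14.3 and 10.5 under shRNA2. Both shRNA1 libraries were below every other library, at -0.91 (SE 0.18, limma adjusted p = 0.017). ACN9 (SDHAF3), another factor for SDHB, was at 29.1 and 28.1 RPKM in control and 16.8 and 18.8 with shRNA1, a change of -0.67 on the log2 scale (SE 0.12, adjusted p = 0.0133). COA5, a complex IV assembly factor, was at -0.50 (SE 0.13, adjusted p = 0.0347), and at -0.37 (adjusted p = 0.0761) with the trend removed.

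With shRNA2 0 of the 51 passed as deposited. ESRRA, a nuclear receptor that drives mitochondrial genes, came nearest, at 14.1 and 13.3 RPKM in control and 20.9 and 18.3 with shRNA2 (0.50, SE 0.14, limma adjusted p = 0.0519). In the fit with the trend removed, ESRRA (0.56, adjusted p = 0.0144), SDHAF2 (0.54), COX20 (0.51) and C7orf55 (0.55) rose, 4 of 51 against 12.5% of all genes tested. LRPPRC, which stabilises mitochondrial mRNAs, and PPRC1, a coactivator of the PGC-1 family, fell in that fit (-0.45 and -0.55), 2 of 51 against 11.3%. Between the hairpins 4 of 51 were higher with shRNA2, against 4.78% of all genes tested, and 0 lower, against 6.1%. These were 6 (7.92%) and 1 (8.98%) with the trend removed, the added genes being SDHAF1 and ATPIF1 (higher) and SCO1 (lower). SDHAF2, which attaches FAD to SDHA, was at 17.3 and 18.5 RPKM with shRNA1 and 35.7 and 31.0 with shRNA2, a difference of 0.88 (SE 0.15, limma adjusted p = 0.0107). COX20, a chaperone of complex IV assembly, differed by 0.82 (adjusted p = 0.0145), C7orf55, an ATP synthase assembly factor, by 0.69 (adjusted p = 0.0413) and ESRRA by 0.53 (adjusted p = 0.0317). GABPA, whose promoter faces that of ATP5J with 82 bases between the starts, was at 9.60 and 13.6 RPKM in control, 14.7 and 16.6 under shRNA1, and 14.4 and 15.8 under shRNA2, without passing. CCDC127, 167 bases from SDHA on the opposite strand, fell with shRNA2 (-0.64, SE 0.17, limma adjusted p = 0.0427), where SDHA was at 0.21.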

How the data were processed

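RNA of 6 OCI-AML2 libraries was sequenced, with libraries made by a directional kit per the labels' protocols. The submitters' processing notes name the tools DESeq 1.18.0, edgeR 3.8.6, HTSeq 0.6.1p2, TopHat2 2.0.11 and Trim Galore 0.4.0, without role or order, and the build hg19. Their gene filter and strand setting were not given in the sources used here. The authors deposited RPKM per library in 1 table per hairpin, with the same control values in both, beside their own log2 fold change, a likelihood-ratio score and a p-value with its adjusted value. Their test statistic was not used.

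Whole reads and gene lengths were recovered from the steps of the RPKM values for 100% of 13002 genes (within 0.01 reads of a whole number), with 1 possible length for 11836 genes and for every member. These give the depth, and intervals on it would cover counting error only: the fewest reads of a member in a library was 233. The denominators of the RPKM were 0.951 to 1.067 times the reads in listed genes. From the deposited RPKM, limma 3.58.1 (R 4.3.3) was fitted on log2(RPKM + 0.5) for genes whose mean reached 1 RPKM, each hairpin in its own table of 4 libraries and the hairpins against each other in all 6. Folds on this scale understate changes of low genes. Each library's lowess trend (span 0.3) over log2 gene length was removed in an alternative fit. The fit was tested on simulated data with known log2 changes of 1 and 2 in size. It recovered nearly all of them, with a share of false calls above the nominal level in each comparison. These changes were larger than any member's, as deposited or with the trend removed, and the simulated libraries had no gene length trend. Recovery of changes as small as the members' was therefore not measured.

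Members and gene lists were chosen with earlier results of these data known, so no test was made over a list. Values in every library are given for the core subunits, every member called as deposited, and the highest and lowest fold change of each complex and comparison. ATP5SL, COX7C, UQCRH, the complex III to V genes that passed only with the trend removed, the related genes named from that fit and the promoter neighbours GABPA and CCDC127 were named after their values were seen.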

Additional observations from a re-analysis of the deposited data

How the results depend on the processing

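The number of members past the threshold depended on the processing. The share of all genes tested that passed also moved between settings, as the shares given above show. Shares are not given for the other settings listed here. A change in the counts below is therefore not a result about the members. No member called as deposited changed the sign of its fold change under an alternative run here. Of the 16 called with shRNA2 with the trend removed, 6 had the other sign as deposited without shRNA2 A (-0.14 to -0.04) and 4 without control B (-0.11 to -0.02). With shRNA1 the number of members called was 3 in the report, 1 with no filter and 5 with quantile normalization. It was 7 with the gene length trend removed (median log2 fold change 0.092) and 5 by limma-voom with the RPKM denominators as library sizes. Leaving out 1 library at a time gave 0 to 24 members and medians of -0.27 to 0.01. With shRNA2 it was 1 in the report, 5 with quantile normalization, 16 with the trend removed, 4 by limma-voom with totals, 2 with the RPKM denominators, 3 with all 6 libraries in 1 fit, and 0 to 1 with a library left out (medians -0.09 to 0.30). Between the hairpins it was 0 in the report, 2 with quantile normalization, 1 with the trend removed and 0 with any library left out (medians -0.00193 to 0.43). With the trend removed, leaving out a library gave 0 to 10 members for shRNA1 (medians 0.069 to 0.114), 0 to 9 for shRNA2 (medians 0.23 to 0.31) and 0 between the hairpins (medians 0.055 to 0.193). In these fits a lone library is assumed to vary like the other groups, and the alternatives that combine the trend with a left-out library, a replicate block, another span or the RPKM denominators were chosen after seeing the data.

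The letters A and B give 2 pairs per comparison and share only a letter. Deviations of same-lettered libraries correlated at 0.26, 0.42 and 0.37 across genes for the 3 pairs of groups, and at 0.21, 0.27 and 0.31 with the trend removed. With the letter as a replicate block, 12 members passed with shRNA1 (4 higher), 11 with shRNA2 (7 higher) and 4 between the hairpins, where 35.6%, 39.1% and 22.5% of all genes tested did. With the block, 8 members were lower with shRNA1 and 4 with shRNA2, where 17.6% and 20.3% of all genes tested were. ATP5G1, ATP5G2, COX7C and ATP5I were called lower with each hairpin. SDHC, UQCRC2, ATP5B and ATP5SL were called higher with each, where 18% and 18.8% of all genes tested were. With the trend removed and a replicate block together, 8 members passed with shRNA1 (median 0.092), 23 with shRNA2 and 6 between the hairpins. The share of all genes tested was not counted in this combined fit. These counts are therefore not a result about the members. The calls of SDHC and ATP5B with shRNA1 rested on both shRNA1 libraries, the call of SDHC with shRNA2 on control B and shRNA2 A, and COX7A2L passed in 5 of 11 alternatives. With 2 libraries per group, a difference that missed the threshold in a given fit is not shown to be absent.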
